A study of Arabidopsis thaliana with 36 samples.

Results

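The transcripts described here were high at both 12pm and 6pm, the harvests within the light phase, in Arabidopsis thaliana plants overexpressing CCA1. They are the 200 probe sets that combined a steady level between 12pm and 6pm with the widest gap above the night. A probe set was eligible where its mean log2 level at 12pm and 6pm differed by less than 0.4, which 9922 of the 12635 probe sets above a low-signal filter met. Eligible probe sets were ranked by a score, the lower of the 12pm and 6pm levels minus the higher of the 12am and 6am levels, and the highest 200 were taken. The level at a time is the mean of 9 arrays, so the rise in the light and its flatness chose the members, and both are given below as a description without a test.

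Expression was measured on 36 Affymetrix arrays of RNA from 3 sucrose-gradient fractions. Arrays that share a harvest time and replicate number are read here as 1 extract, which gives 12 extracts. No label states this, and it was inferred from values that deviated together in all 36 pairs of such arrays. The fractions were large polysomal, small polysomal and non-polysomal RNA, and each harvest time had 3 replicates. All plants were CCA1-ox in the Columbia background, aged 10 days, and the aerial parts were used. They grew on agar plates of Murashige and Skoog salts containing 1% sucrose, in days of 16 h light and 8 h dark, and were taken at 6am, when the lights came on (ZT 0), at 12pm (ZT 6), 6pm (ZT 12) and 12am (ZT 18). After its onset the light was sampled at ZT 6 and ZT 12 only, so levels from ZT 12 to its end were not measured. The harvest at 12am came early in the dark, and the time from 6pm to 12am was part light and part dark. Every group carried the overexpression. The promoter behind it is not given in the sources used here, wild-type arrays were not analysed here, and no label states that the replicates were separate cultures. P-values therefore measure the spread between these extracts, which may be partly technical.

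In plants, many transcripts follow the day through light itself, perceived by phytochromes and cryptochromes, and through the circadian clock, in which CCA1 is a morning transcription factor that represses evening genes. Transcripts that are high in the light commonly serve photosynthesis, wall growth, pigments and other products made from fixed carbon. A transcript under translation carries ribosomes and sinks with the polysomes, and one that is not stays in the lighter non-polysomal part of the gradient. Loading here means the large polysomal log2 value of an extract minus its non-polysomal one. It was not used by the rule and could be tested.

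The arrays of 1 group correlated with r of 0.961 to 0.996, and no 2 arrays of the same group held identical values. Green-tissue markers were strong, with the Rubisco activase gene RCA at 12.0 to 14.2 log2 units over the 36 arrays. PYK10, a beta-glucosidase gene listed as a root marker, was also present in these aerial parts. Its mean level was 11.01 ± 0.45 at 6am, 11.5 ± 0.42 at 12pm, 12.2 ± 0.24 at 6pm and 11.9 ± 0.31 at 12am (SD over 9 arrays), so it moved with the time of day, and its part in the members' levels was not tested. A listed gene was matched where a probe set above the filter carried its name alone. Since 5548 of the 12635 probe sets carry no gene name, a listed gene without a match is not shown to lack a signal. PYK10 was the only 1 of 4 listed root markers matched, with 1 guard-cell marker and no epidermal or vascular marker. In bulk tissue, fewer cells of a type and less RNA per cell cannot be told apart.

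Of the 200 members, 103 named 1 gene, 3 named several genes and 94 named none. That is 51.5% with 1 gene name, against 54.0% of all probe sets tested. The 103 genes were all different, and 17 of them had a symbol beyond the locus tag. The named genes below were chosen by rules on rank and size, and the members with a symbol or an entry in a pathway list are described besides, a choice made after their values were seen. Members known only by a locus tag are given without a role.

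The median level of the 200 was 6.15 at 6am, 8.46 at 12pm, 8.39 at 6pm and 6.30 at 12am on the log2 scale. The mean of the light times exceeded that of 12am and 6am by 1.35 to 5.53 log2 units, with a median of 1.95. In 129 members every one of the 18 arrays from the light lay above every one of the 18 from 12am and 6am, and in the other 71 the arrays overlapped. The first held for 2.64% of all probe sets tested, and nothing is read from it, since the rule used these values. The level at 12pm was the higher of the light times in 105 members and the level at 6pm in 95. The light-minus-night difference had a median of 1.94 in large polysomal RNA, 1.96 in small polysomal RNA and 1.96 in non-polysomal RNA, so the diurnal rise was of nearly the same median size in each fraction. Scores ran from 1.24 to 5.33 log2 units, with a median of 1.57.

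**Figure D1:**
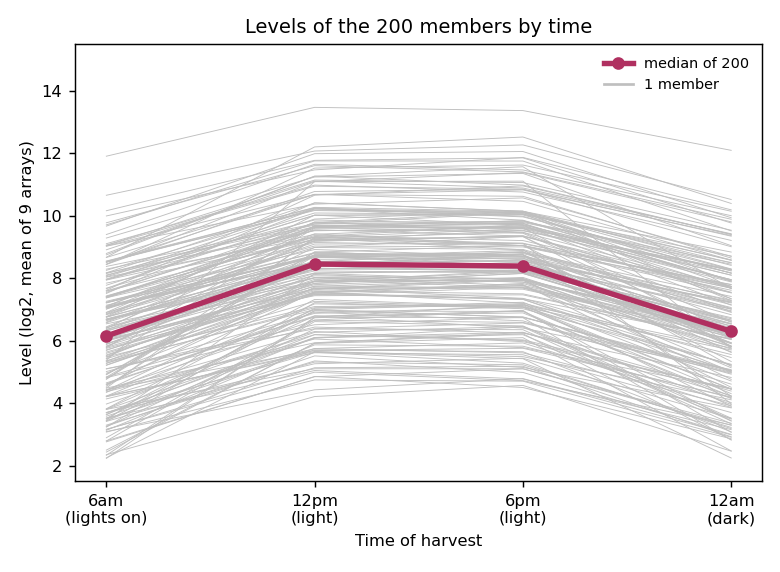
Level of each of the 200 members (grey lines, log2, mean of 9 arrays) at the 4 harvest times, with the median in red. The lines are raised at 12pm and 6pm and nearly flat between them, which is what the rule required.

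The rule's edges were gradual. The last named members were AT5G19970, with a score of 1.25, and AT3G46540, with 1.24, and the last member of all was an unnamed probe set at 1.24. The next in rank, AT1G34640, scored 1.23 and was left out. A further 106 probe sets scored as high as a member but differed by 0.4 or more between 12pm and 6pm, 56 of them higher at 12pm and 50 higher at 6pm. Of the 200 members, 119 had all 12 group means at 5 or more on the log2 scale. The other 81 fell below 5 in some group, and 49 had both night levels under 5, close to the low end of the values, where log2 differences are compressed.

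The highest score belonged to a probe set without a gene name, whose levels were 5.37 at 6am, 11.1 at 12pm, 11.1 at 6pm and 5.76 at 12am. The highest named member was AT1G60590, entered in the cell wall list as a pectin lyase-like gene, a class of enzymes that cut wall pectin. Its 3 extracts had levels of 4.16, 4.43 and 4.87 at 6am, of 9.47, 9.30 and 9.17 at 12pm, of 9.05, 9.04 and 9.26 at 6pm, and of 4.05, 4.06 and 3.83 at 12am. The light extracts were all far above the night extracts, with a mean difference of 4.98 log2 units. Of its 18 night arrays 17 were under 5, and 4 of the non-polysomal ones read the same value of 3.80, so the difference is not given as a fold. A second pectin lyase-like gene of that list, AT1G10640, averaged 3.73 at 6am, 8.75 at 12pm, 8.25 at 6pm and 4.05 at 12am. It scored 4.2 and was not a member, since it was 0.50 log2 units higher at 12pm than at 6pm.

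AT3G52740, entered in the light-signalling list as BIC1, an inhibitor of the cryptochrome blue-light receptors that light itself induces, ranked 6. The extracts had levels of 5.64, 5.35 and 5.30 at 6am, of 9.84, 9.59 and 9.64 at 12pm, of 10.1, 9.42 and 9.35 at 6pm, and of 6.25, 6.09 and 5.85 at 12am. The groups of extracts from the light and from the night did not overlap, and the mean difference was 3.90 log2 units, or 15.0-fold. The related inhibitor gene BIC2 (AT3G44450) averaged 3.14 at 6am, 8.96 at 12pm, 8.29 at 6pm and 4.04 at 12am, and its drop of 0.67 between 12pm and 6pm kept it out. Both BIC genes were thus low at 6am and high 6 h later, but the level of BIC1 was flatter between 12pm and 6pm.

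The other named members among the 10 highest were known only by locus tags. AT5G59130 scored 3.92 and was at 2.23 at 6am, near the lowest value on the arrays, and at 6.75 at 12pm. AT3G22540 scored 3.73, AT3G57020 scored 3.42, AT3G44970 scored 3.19 and AT2G40435 scored 3.09. AT1G23205, AT2G27420 and AT3G28270 followed at 3.01, 3.01 and 2.95. In AT5G59130, AT2G40435, AT1G23205 and AT3G28270 every night array was under 5, so their scores were set in part by night levels at the low end. AT3G22540, AT3G57020, AT3G44970 and AT2G27420 each had some night arrays above 5.

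Genes of wall building and loosening were represented by 4 members with a known role: AT1G60590, XTH32, EXPA8 and GH9B8. XTH32 encodes a xyloglucan endotransglucosylase/hydrolase, which cuts and rejoins the xyloglucan that ties cellulose fibrils. Its level was 4.79, 5.28 and 4.67 in the 6am extracts, 8.44, 8.78 and 8.60 at 12pm, 8.78, 8.66 and 8.51 at 6pm, and 6.04, 5.71 and 5.72 at 12am. It was 9.58-fold higher in the mean of the light times, and at 12am it was still 0.91 log2 units above 6am.

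EXPA8 encodes an expansin, a protein that loosens walls without cutting them. Its extracts had levels of 7.63, 7.95 and 7.19 at 6am, of 9.47, 9.32 and 8.93 at 12pm, of 9.53, 9.31 and 9.15 at 6pm, and of 6.35, 6.30 and 6.27 at 12am. Every 6am extract was above every 12am extract, the opposite order to XTH32. GH9B8, a family 9 glycosyl hydrolase of the endoglucanase kind, averaged 4.61 ± 0.70 at 6am, 6.91 ± 0.22 at 12pm, 6.64 ± 0.50 at 6pm and 4.61 ± 0.19 at 12am (SD, n = 3 extracts). Of the 17 listed wall genes 5 were matched by name, EXPA8 and AT1G60590 among them. Of the 5, 3 were higher in large polysomal than in non-polysomal RNA at an adjusted p under 0.05 in limma, against 42.3% of all probe sets tested, and the other 2 were not called. XTH32 and GH9B8 are not in that list.

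Several members make or move specialised metabolites. CHIL encodes a chalcone isomerase-like protein without catalysis of its own that aids flavonoid production. Its extracts had levels of 3.98, 4.07 and 3.39 at 6am, of 6.71, 6.84 and 6.82 at 12pm, of 7.02, 6.94 and 6.71 at 6pm, and of 4.51, 4.06 and 4.1 at 12am, a 7.08-fold difference between the means of light and night. Neither of the 2 matched genes of the flavonoid list was a member. UGT74B1, the glucosyltransferase of glucosinolate core synthesis, averaged 6.33 ± 0.52 at 6am, 7.83 ± 0.42 at 12pm, 8.16 ± 0.44 at 6pm and 6.14 ± 0.36 at 12am (SD, n = 3 extracts). GTR1, a plasma-membrane glucosinolate transporter, averaged 5.64 ± 0.75 at 6am, 7.55 ± 0.17 at 12pm, 7.83 ± 0.07 at 6pm and 5.93 ± 0.22 at 12am. The light extracts of both genes lay above all of their night extracts.

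The other glycosyltransferases were UGT76E11, which belongs to the family that joins sugars to small molecules, and GT72B1, which glucosylates monolignols and foreign compounds. UGT76E11 averaged 4.96 ± 0.27 at 6am, 7.52 ± 0.16 at 12pm, 7.77 ± 0.14 at 6pm and 5.01 ± 0.07 at 12am (SD, n = 3 extracts). GT72B1 was at 4.22 ± 0.37, 5.62 ± 0.19, 5.55 ± 0.24 and 3.70 ± 0.25 in the same order of times. 

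Members with roles in or around the chloroplast and in redox protection were CRR42, VTC4 and MSRB6. CRR42, needed to assemble the chloroplast NADH dehydrogenase-like complex, averaged 7.01 ± 0.18 at 6am, 9.67 ± 0.14 at 12pm, 9.84 ± 0.12 at 6pm and 7.92 ± 0.35 at 12am (SD, n = 3 extracts). VTC4, the L-galactose-1-phosphate phosphatase of ascorbate synthesis, averaged 9.11 ± 0.14, 10.98 ± 0.13, 10.76 ± 0.05 and 9.21 ± 0.09 in that order of times. Its extracts from the light and the night did not overlap, and the difference between their means was 3.28-fold. MSRB6, a methionine sulfoxide reductase that repairs oxidised proteins, averaged 7.62 ± 0.06, 10.66 ± 0.16, 10.96 ± 0.14 and 9.40 ± 0.45. None of the 3 matched Calvin cycle genes, 3 chlorophyll genes and 7 nuclear photosystem genes of the lists was a member.

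Of the defence and signalling genes, THI2.2, which encodes a thionin, a small antimicrobial protein, changed in steps. Its extracts had levels of 8.94, 8.63 and 8.45 at 6am, of 11.9, 12.1 and 12.5 at 12pm, of 12.6, 12.4 and 12.5 at 6pm, and of 10.8, 10.5 and 9.88 at 12am. The 12am extracts lay between those of the light and those of 6am, without overlap. CLE44, the precursor of a peptide signal that keeps vascular stem cells undifferentiated, averaged 5.83 ± 0.18 at 6am, 7.92 ± 0.12 at 12pm, 8.20 ± 0.27 at 6pm and 6.08 ± 0.45 at 12am (SD, n = 3 extracts). SGP2, a small GTP-binding protein gene, was at 3.80 ± 0.21, 5.10 ± 0.07, 5.10 ± 0.10 and 3.36 ± 0.12.

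BETA-VPE, a vacuolar processing enzyme that matures vacuolar proteins, averaged 6.14 ± 0.10 at 6am, 8.01 ± 0.10 at 12pm, 7.77 ± 0.22 at 6pm and 6.32 ± 0.34 at 12am (SD, n = 3 extracts). The serine carboxypeptidase-like gene scpl20 averaged 6.10 ± 0.48, 7.90 ± 0.25, 7.94 ± 0.01 and 6.48 ± 0.18 at the same times. AT3G21670, with the RefSeq synonym NPF6.4 and so a member of the nitrate and peptide transporter family, had extracts at 7.05, 6.89 and 6.32 at 6am, at 8.37, 8.53 and 8.68 at 12pm, at 8.82, 8.94 and 8.81 at 6pm, and at 5.95, 5.58 and 5.34 at 12am. All its 6am extracts were above all its 12am extracts.

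**Figure D2:**
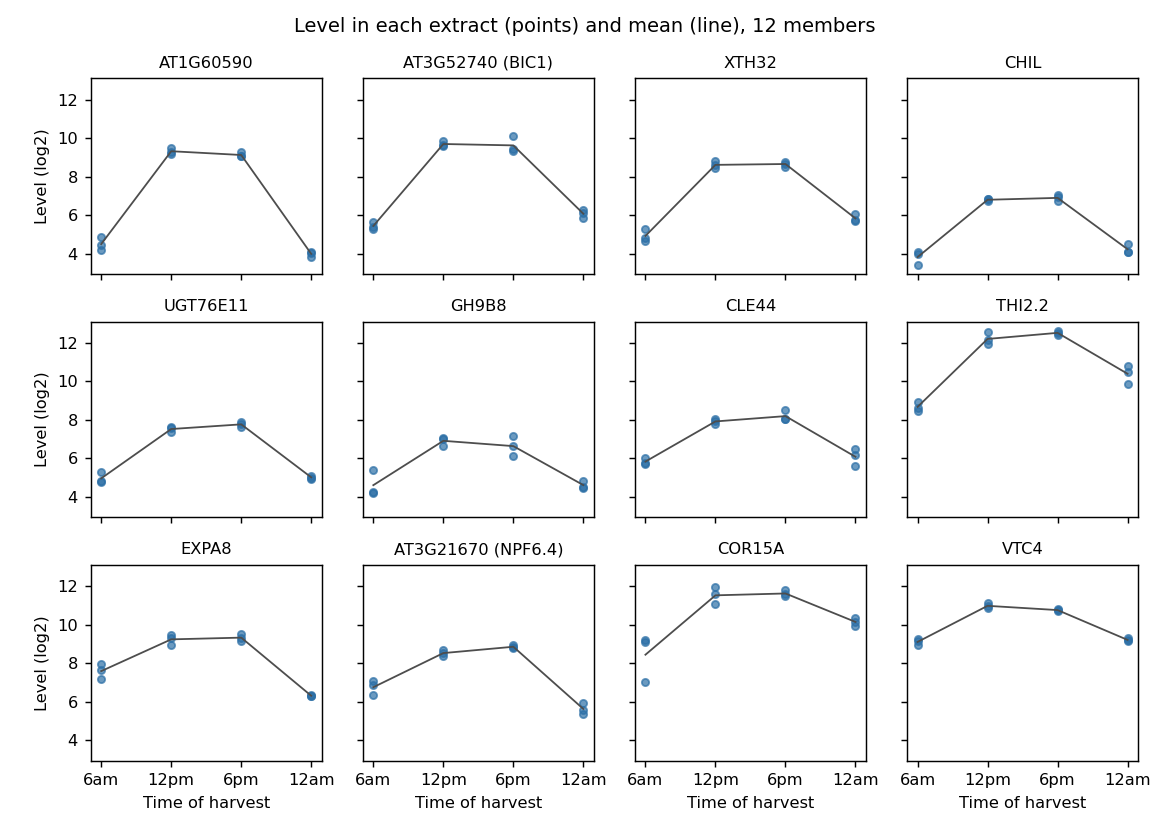
Level (log2, mean of 3 fractions) in each of the 3 extracts (points) at each harvest time, with the mean as a line, for 12 members that have a known role. EXPA8 and AT3G21670 are higher at 6am than at 12am, and THI2.2, COR15A and XTH32 are higher at 12am than at 6am.

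Of 268 entries in 17 lists of pathway genes 46 were matched by name, and 4 of these were members, in 3 lists: EXPA8 and AT1G60590 for the wall, COR15A for cold and AT3G52740 for light signalling. That is 8.7% of the matched entries, where members made up 1.58% of all probe sets tested and 1.51% of those naming 1 gene. The lists were chosen with earlier results of these data known, so nothing is read from this share. COR15A encodes a cold-induced chloroplast protein that protects membranes on freezing. Its extracts had levels of 7.02, 9.11 and 9.19 at 6am, of 11.1, 11.6 and 11.9 at 12pm, of 11.8, 11.5 and 11.6 at 6pm, and of 9.95, 10.1 and 10.4 at 12am. Extract 1 at 6am stood more than 2 log2 units below the others, so the night level of this gene rested on extracts that differed among themselves. It was the only member among 6 matched cold genes.

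The night levels, which the rule only bounded from above, varied among members. At 6am, after the dark period, 128 members were lower than at 12am and 72 were higher, and 129 were within 0.5 log2 units. A gap of 1 or more separated the night times in 24 members, with 6am lower in 19 and higher in 5. The widest gap of all, 3.04 with 6am higher, was in a probe set without a gene name. Among members naming 1 gene, 6am was furthest below 12am in AT1G70820, by 2.69, in AT1G66100, by 2.39, and then in MSRB6, by 1.79, THI2.2, by 1.72, COR15A, by 1.70, and AT5G45650, by 1.59. For these 6 the level at 12am was still part of the way down from the light. Without replicate 1, a setting added after the data were seen, the gap of COR15A was 1.09 in size, with 6am lower, the narrowest of the 6. Among members naming 1 gene the level at 6am was furthest above 12am in EXPA8, by 1.28, in AT3G21670, by 1.13, in AT5G02230, by 0.90, and in AT3G48460, GT72B1 and AT1G60590, by 0.72, 0.52 and 0.51. The gap of AT1G60590 was 0.24 without replicate 3.

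**Figure D3:**
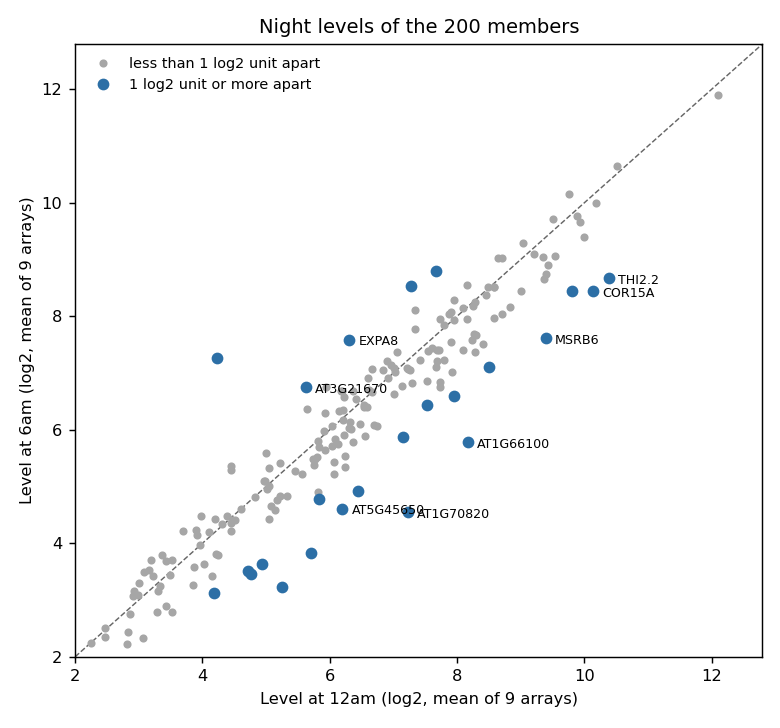
Level at 6am (vertical axis) against the level at 12am (horizontal axis) for the 200 members, both log2 and the mean of 9 arrays, with the line of equal levels dashed. Blue points mark the 24 members 1 log2 unit or more apart, 19 of them below the line.

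AT1G70820 had the widest gap of the members lower at 6am. Its extracts had levels of 4.24, 4.45 and 4.95 at 6am, of 8.57, 9.01 and 8.96 at 12pm, of 8.44, 8.69 and 8.65 at 6pm, and of 7.36, 7.23 and 7.12 at 12am. It lost more between 12am and 6am than between 6pm and 12am, a time that was part light and part dark. AT1G66100 had 5.90, 5.99 and 5.45 at 6am, 9.36, 9.70 and 9.75 at 12pm, 9.86, 9.57 and 9.47 at 6pm, and 8.43, 8.70 and 7.40 at 12am. Here too the 12am extracts lay between the other groups.

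The fractions answer whether these transcripts were carried by ribosomes as other transcripts were. In limma, with 12 group means and Benjamini-Hochberg adjustment over 12635 probe sets, 79 members were higher in large polysomal than in non-polysomal RNA and 68 were lower, at an adjusted p under 0.05. Among all probe sets tested 42.3% were higher and 37.8% lower, so the 39.5% and 34% of members were slightly below the background in both directions. With all 12 group means at 5 or more, 51 of 119 members were higher and 35 lower, against 41.6% and 38.5%. With 1 probe set per gene, 44 of 103 were higher and 34 lower, against 39.6% and 40.6%. In these sets only the share of lower members was below its background. The median difference of the 200 was 0.01 log2 units, against 0.06 over all tested, and the members ran from -2.46 to 4.28. A 2-fold difference or more was called in 36 members upward and in 24 downward, which is 18% and 12%, against 16.1% and 12.6% of all tested. When the arrays were shifted to equal levels of the added bacterial control RNA, whose level differed by fraction, 196 members were higher and 0 were lower in limma, 0 also at an unadjusted p under 0.05, against 98.5% and 0.166% of all tested. That shift moved the median of all probe sets to 2.70 and of the members to 2.66, so relative to the median the members' place was little changed.

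**Figure D4:**
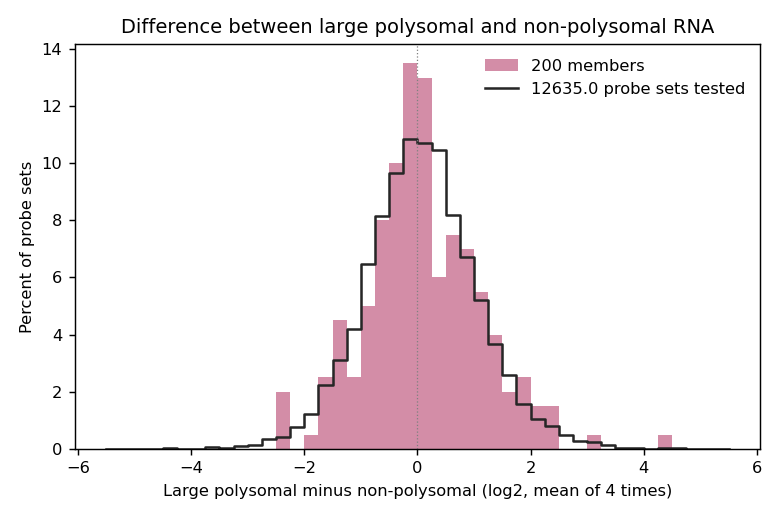
Percent of the 200 members (red bars) and of the 12635 probe sets tested (black outline) in bins of 0.25 log2 units of the large polysomal minus non-polysomal difference, averaged over 4 times. Both distributions centre near 0 and span nearly the same range of values for most probe sets.

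The same held for the neighbouring fractions and at each time. Small polysomal RNA was higher than non-polysomal RNA in 70 members and lower in 54, against 36.7% and 31.6% of all tested. Large polysomal RNA was higher than small polysomal RNA in 49 members and lower in 47, against 27.8% and 27.7%. Members were therefore spread over both ends of the gradient, as other probe sets were. At 6am 56 members were higher and 37 lower in large polysomal than in non-polysomal RNA, against 31.4% and 25.6% of all tested. At 12pm the counts were 56 and 52, against 32.8% and 29.1%, at 6pm 66 and 43, against 32% and 29.2%, and at 12am 52 and 50, against 31% and 28.9%. Each share of members was below its background but for the 33% higher at 6pm. Without replicate 2, 33 members were lower at 12pm and 25 at 12am, against 22% and 20.1% of all tested. A call in the same direction at all 4 times was made for 38 members upward and 24 downward, against 20% and 16.2% of all tested. In 2 members the calls ran in opposite directions at different times, against 1.43%.

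At the loaded end, AT3G14067 had large polysomal minus non-polysomal differences of 2.18 at the lowest, 3.12 at the median and 4.62 at the highest over the 12 extracts. Every extract was well above 0, and the mean was 3.18 ± 0.13 log2 units (SE), or 9.04-fold, with an adjusted p of 5.55e-19 in limma. AT1G13930, AT3G15680, AT4G30450, AT1G03020 and AT1G67750 followed with means of 2.29, 2.25, 2.23, 2.1 and 1.98. All 12 extracts of each were above 0. AT1G66100, whose level fell late in the night, averaged 1.86 with an adjusted p of 1.77e-11.

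Among members with a known role, described after their values were seen, GT72B1 ran from 0.74 to 2.41 over the 12 extracts and averaged 1.45 ± 0.13 (SE, adjusted p = 3.47e-11, limma). UGT74B1 ran from 0.62 to 1.79 and averaged 1.35 ± 0.18 (adjusted p = 6.22e-08, limma), and UGT76E11 averaged 0.73 ± 0.10 (adjusted p = 9.93e-08, limma). COR15A averaged 1.07 ± 0.25 (adjusted p = 0.000362, limma), positive in 11 of 12 extracts. Smaller rises were called for BETA-VPE, at 0.52, GTR1, at 0.48, CRR42, at 0.47, MSRB6, at 0.32, AT1G60590, at 0.54, and AT3G52740, at 0.31, and in AT3G52740 only 8 of 12 extracts were above 0. The call for AT3G52740 was lost under 3 other scalings and without replicate 3 (0.13), that for GTR1 without replicate 2 (0.43), and that for MSRB6 without replicate 2 (0.28) or replicate 3 (0.27).

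At the unloaded end, AT1G69526 ran from -3.42 to -1.63 over the 12 extracts, with a median of -2.13. It averaged -2.37 ± 0.12 log2 units (SE), a 5.16-fold difference, with an adjusted p of 7.72e-17 in limma. Its neighbour in the genome, AT1G69523, with no protein-coding gene between them, was also a member and averaged -0.77 ± 0.12 (adjusted p = 6.93e-07, limma). AT2G29360, SGP2, XTH32, AT3G15720 and AT3G44970 averaged -1.93, -1.61, -1.57, -1.54 and -1.52. Of these only AT2G29360 had all 12 group means at 5 or more.

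XTH32 thus belonged to the least loaded members, with -2.50 at the lowest, -1.47 at the median and -0.84 at the highest over the extracts (adjusted p = 5.24e-14, limma). GH9B8 averaged -1.41 ± 0.19 (SE, adjusted p = 5.05e-08, limma), so 2 of the 4 wall genes were lower in large polysomal RNA, while AT1G60590 was higher. EXPA8 was not called in either direction, with a mean of -0.07 and a 95% interval of -0.31 to 0.17. VTC4 averaged -0.75 ± 0.07 (adjusted p = 5.53e-11, limma), below 0 in all 12 extracts. CLE44 averaged -0.61 (adjusted p = 0.000859, limma) and scpl20 -0.53 (adjusted p = 0.00128, limma), each below 0 in 11 of 12 extracts. THI2.2, at -0.28 with an interval of -0.57 to 0.01, CHIL, at 0.01 with -0.25 to 0.28, and AT3G21670, at 0.19 with -0.04 to 0.42, were not called. With the extracts as a block, THI2.2 was called lower (adjusted p = 0.00663, limma) and AT3G21670 higher (adjusted p = 0.00947, limma).

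The other neighbouring pairs were AT4G33660 with AT4G33666, and AT1G51080 with AT1G51090. AT4G33660 was higher in large polysomal RNA by 1.77 and AT4G33666 by 0.58 (adjusted p = 0.000181, limma). AT1G51080 was higher by 0.76 (adjusted p = 6.37e-07, limma), and AT1G51090 was not called, at -0.36 with an interval of -0.76 to 0.04, though it was with the extracts as a block (adjusted p = 0.0213, limma). Neighbours therefore shared the diurnal pattern that chose them but not the size of the fraction difference. Where neighbours or relatives are alike in sequence, a probe set can read both, which was not analysed here.

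Whether loading itself changed between light and night was tested as the mean of 12pm and 6pm minus the mean of 12am and 6am. In limma, without the extracts as a block, 6 members rose and 6 fell at an adjusted p under 0.05, against 2.07% and 3.4% of all tested. In this fit, which leaves out the pairing of fractions within an extract, the 12 members, or 6% of 200, were near the background of 5.47%. The members' median change was 0.02 log2 units, against -0.01 over all tested, and 151 of the 200 changed by less than 0.5. In 139 members, or 69.5%, the 95% interval of the change lay within 1 log2 unit of 0, against 82.1% of all tested. With the 12 extracts as a block, 24 members rose and 16 fell, or 12% and 8%, against 6.79% and 9.51% of all tested. Together that is 20% of members, against 16.3%. The share of rises was thus above its background and that of falls below it, a difference that was not tested. All 12 members called without the block were among these 40. Of the 12, 7 had some group mean under 5. Among probe sets with all 12 group means at 5 or more, fitted without the block, 1 of 119 members rose and 4 fell. The shares of all tested there were 2.03% and 4.03%, so that set held no excess of rises. The block was not fitted on it. The number of calls without the block depended on the replicate left out. Without replicate 2, or without replicate 3, 1 member rose and 1 fell. The shares of all tested were 0.0633% and 0.0712% without replicate 2 and 0.0871% and 0.119% without replicate 3. Without replicate 1, 10 members rose and 9 fell, against 4.83% and 7.45% of all tested. Scaling moved the split. After quantile normalization 9 members rose and 5 fell, against 2.55% and 3.16% of all tested. After cyclic loess 8 rose and 4 fell, against 2.75% and 2.62%. After the shift to the control RNA 0 rose and 1 fell in limma, against 0.00791% and 0.0237%.

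Among members that rose in loading, AT1G03020 changed most. Its extracts from the light had loading of 2.72 at the lowest, 3.22 at the median and 3.46 at the highest, and those of the night 0.32, 0.91 and 1.80. The groups did not overlap, and the change was 2.11 ± 0.41 log2 units (SE, adjusted p = 0.00299, limma). Its 12 non-polysomal values were all at the low end, 2.70 to 3.65 in the light and 2.2 to 2.94 at night, and it passed the filter through 8 polysomal arrays of the light alone. Its large polysomal values were 6.15 to 6.43 in the light and 2.77 to 4.49 at night. With non-polysomal RNA so low in both, the change of loading repeats the rise of its level in large polysomal RNA, which the rule used in part, and its ratio between fractions is not resolved. AT5G42760 had loading of 0.08, 0.53 and 0.99 in the light and -1.06, -0.58 and 0.28 at night, which overlapped, and changed by 1.08 ± 0.31 (adjusted p = 0.0381, limma). AT1G23205 had 0.64, 0.90 and 2.50 in the light and -0.36, -0.07 and 0.90 at night, again overlapping, and changed by 0.99 ± 0.27 (adjusted p = 0.0281, limma). All its night arrays were at the low end, at 2.80 to 3.97, so it passed the filter through arrays of the light alone. With both fractions so low at night, its night loading is not resolved, nor is the change that rests on it.

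Among members that fell, GH9B8 had loading of -2.27, -2.07 and -1.83 in the light and -1.16, -0.80 and -0.15 at night as lowest, median and highest of 6 extracts. The groups did not overlap, and the change was -1.30 ± 0.37 log2 units (SE, adjusted p = 0.0349, limma). Its large polysomal values at night were all low, at 3.83 to 4.94, against which the non-polysomal ones were 4.23 to 5.66, with the same value of 5.06 on all 3 arrays of 12am. Log2 differences are compressed at such levels, and the part of this in the change was not tested. AT1G13930 had 1.77, 1.88 and 2.03 in the light and 2.21, 2.72 and 3.3 at night, with no overlap, and changed by -0.80 ± 0.18 (adjusted p = 0.00957, limma). AT4G33660 had 0.95, 1.31 and 2.03 in the light and 1.41, 2.29 and 2.54 at night, which overlapped, and changed by -0.84 ± 0.25 (adjusted p = 0.0393, limma). Both had all 12 group means at 7.95 or more, and both kept positive loading in every extract. Each of these 6 genes lost its call without replicate 2, without replicate 3 and after the shift to the control RNA, and AT5G42760, AT1G23205, GH9B8 and AT4G33660 lost it with no filter on low values.

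**Figure D5:**
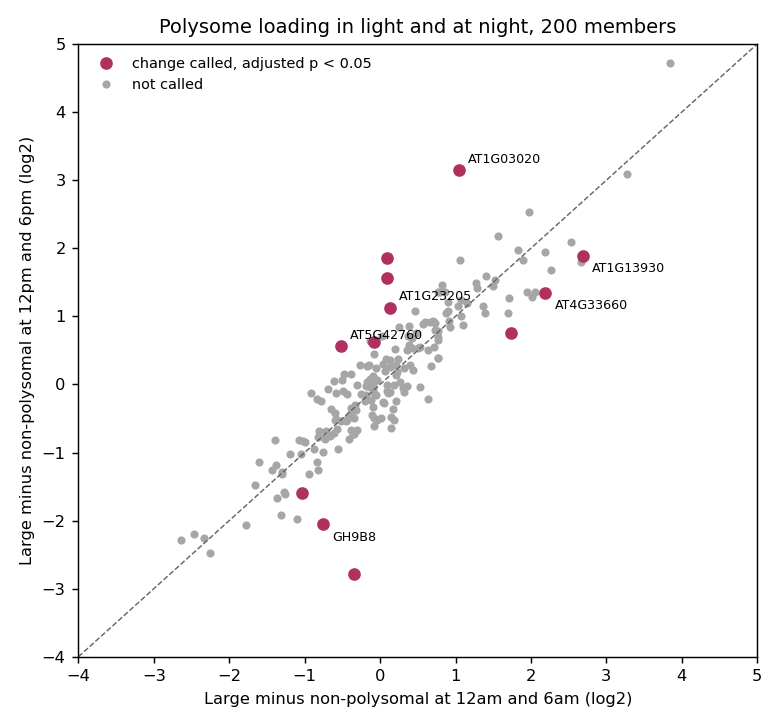
Loading (large polysomal minus non-polysomal, log2) in the mean of 12pm and 6pm against the mean of 12am and 6am for the 200 members, with the line of equal loading dashed. The 12 red points are called at an adjusted p under 0.05, and most members lie along the line.

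A test of any change of loading over the 4 times called 20 members, against 12.7% of all tested, and 75 with the extracts as a block, against 35.6%. Without replicate 2 it called 1 and without replicate 3 it called 2, against 0.198% and 1.85% of all tested. Of the 20, 10 named 1 gene and 10 were also called between light and night. XTH32 was among them, with loading of -1.08 at 6am, -1.61 at 12pm, -1.35 at 6pm and -2.23 at 12am (adjusted p = 0.0468, limma). It was thus least loaded at 12am and most at 6am, the times of its lower levels. AT2G33180 had 0.86 at 6am, -0.50 at 12pm, -0.80 at 6pm and -0.57 at 12am (adjusted p = 0.00631, limma), and was above 0 at 6am only.

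For comparison, the same rule turned round gave 200 probe sets high at both 12am and 6am. The median large polysomal minus non-polysomal difference was 0.01 in the light-phase members, against -0.14 in the night-high set. Of that set 80 were called higher and 91 lower at an adjusted p under 0.05 in limma, against 42.3% and 37.8% of all tested. A rise of loading in the light was called in 6 light-phase members and a fall in 6, against 5 and 15 of the night-high set. Of all tested 2.07% were called as rises and 3.4% as falls. The 106 probe sets kept out by the limit between 12pm and 6pm had 40 called higher, 39 called lower and a median of -0.03. These differences between sets were not tested.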

How the data were processed

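RNA from 3 gradient fractions of 12 extracts was hybridised to 36 arrays. The deposited values are log2 levels made by the authors with GCRMA and affy 1.42.3 in R 3.1, per the submitters' processing notes. Which steps of GCRMA were set, and whether arrays of all fractions were normalized together, is not given in the sources used here. A general difference in RNA between fractions can be lost in such a normalization.

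Control probe sets (64 of 22810) were left out, and a probe set was kept where at least 3 arrays reached 5, which left 12635. The members and lists were chosen with earlier results of these data known. Probe sets were named from the platform annotation, updated through RefSeq (TAIR10.1), where 13436 of 13513 single-gene names matched. The named genes are the 10 with the highest score, up to 6 of the largest called differences each way in fraction, with the same sign in all 12 extracts, and in loading change, with every light extract on 1 side of the mean night loading (3 each way met this), the 6 widest night gaps each way, the list members and those at the edge of the rule. No sequences were used here.

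A linear model of 12 group means (24 residual degrees of freedom) was fitted in limma 3.58.1, run under R 4.3.3, and moderated with eBayes, with Benjamini-Hochberg adjustment over all 12635 and a threshold of 0.05. Arrays have no read depth, so their number limits precision. In simulated data of this size the fraction test recovered 33 of 50 probe sets changed by 0.5 and 49 of 50 changed by 1. The test of loading change recovered 10 and 34 of 50. The simulated noise had no correlation within an extract, and few probe sets were changed, where most were called in the real fraction test. These rates therefore need not hold here. Arrays that share a time and replicate number deviated together in all 36 pairs (lowest r 0.14, median 0.42). They were therefore read as 1 extract, which no label states, and the extract was also fitted as a block. In all, 16 alternative settings were tried, and columns of other samples in the table numbered 0. Figures were drawn with matplotlib.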

Additional observations from a re-analysis of the deposited data

Results flagged for a closer look

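In 6 members that name 1 gene, the difference between large polysomal and non-polysomal RNA itself differed between the light times and the night times by the interaction test in limma (adjusted p under 0.05). It was larger in the light by 2.11 log2 units in AT1G03020, by 1.08 in AT5G42760 and by 0.99 in AT1G23205. It was smaller in the light in GH9B8, with a change of -1.30, in AT4G33660, with -0.84, and in AT1G13930, with -0.80. With the extracts as a block all 6 remained called, at adjusted p of 9.1e-05 to 0.0078. All 6 lost the call without replicate 2 (adjusted p of 0.118 to 0.396), without replicate 3 (0.175 to 0.444) and after the shift to the control RNA (0.958). With no filter AT5G42760, AT1G23205, GH9B8 and AT4G33660 lost it, at 0.0525 to 0.0774. AT4G33660 also lost it after cyclic loess (0.0682), with only the arrays compared (0.0519) and without replicate 1 (0.0568). In AT1G03020, AT5G42760, AT1G23205 and GH9B8 some group mean was under 5, and the part of the low signal in their changes was not tested. In AT1G03020 every non-polysomal value was under 5, and in AT1G23205 every night value was. Both passed the filter through arrays of the light alone. The changes of loading of these 2 genes are therefore not resolved, and nothing is read from their calls.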

How the results depend on the processing

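Of 272 repeats of the counts of called members, 206 stayed within 1.5 times the reported count. Testing 1 probe set per gene left 103 members, and testing those with all 12 group means at 5 or more left 119, so counts fell with the number tested. With 1 probe set per gene 44 were higher and 34 lower for large against non-polysomal RNA, against 39.6% and 40.6% of all tested there. For small against non-polysomal the counts were 37 and 28, against 35.6% and 32.8%. For large against small they were 23 and 24, against 25.5% and 30.6%. They were 35 and 18 at 6am, against 30.1% and 27.4%, and 30 and 27 at 12pm, against 30.6% and 31.5%. They were 33 and 21 at 6pm, against 28.9% and 31.8%, and 28 and 26 at 12am, against 29% and 31.3%. Loading rose in 3 and fell in 3, against 1.9% and 3.84%, and 11 changed over time, against 13.3%. With all group means at 5 or more 51 and 35 were called for large against non-polysomal, against 41.6% and 38.5% of all tested there. For small against non-polysomal the counts were 46 and 29, against 36.1% and 32.9%. For large against small 27 were lower, against 28.3%. At 6am 24 were lower, against 25.8%, and at 12am 29, against 30%. At 12pm 33 and 27 were called, against 32.4% and 29.8%, and at 6pm 40 and 24, against 31.8% and 30.3%. Loading rose in 1, against 2.03%, and 13 changed over time, against 15.4%. With no filter 3 members rose in loading and 13 changed over time.

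After the shift to the control RNA 196 and 0 were called for large against non-polysomal, against 98.5% and 0.166% of all tested. For small against non-polysomal the counts were 162 and 1, against 81.8% and 0.562%. For large against small they were 196 and 0, against 98.1% and 0.0396%. They were 192 and 0 at 6am, against 96.4% and 0.103%, and 171 and 0 at 12pm, against 85.7% and 0.261%. They were 191 and 0 at 6pm, against 95.7% and 0.0396%, and 194 and 0 at 12am, against 97.2% and 0.0317%. For the loading change under this shift they were 0 and 1, against 0.00791% and 0.0237%, and over time 1, against 0.0554%. Under it the called differences or signs of these genes turned: AT1G69526 to 0.28, AT2G29360 to 0.72, SGP2 to 1.03, XTH32 to 1.08, AT3G15720 to 1.11, AT3G44970 to 1.13, GH9B8 to 1.24, VTC4 to 1.90, AT1G69523 to 1.88, CLE44 to 2.04, scpl20 to 2.12, AT1G51090 to 2.29, THI2.2 to 2.37 and EXPA8 to 2.58. The median of all probe sets moved to 2.70, so these stayed below it.

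With a replicate block of extracts as fixed terms, loading rose in 24 and fell in 16 members and changed over time in 75. The shares of all tested were 6.79%, 9.51% and 35.6%. With a random block the counts were 20, 14 and 66, against 6.51%, 9.4% and 34.7%. With the replicate number as a term 12 rose, against 3.36%, and 36 changed over time, against 20.9%. The block moved no other count by over 1.5 times. Leaving out replicate 1, 2 or 3 in turn gave 1 to 10 rises of loading, against 0.0633% to 4.83% of all tested. It gave 1 to 9 falls, against 0.0712% to 7.45%, and 1 to 24 changes over time, against 0.198% to 17.1%. Between 33 and 45 were lower at 12pm, against 22% to 27.9%, and 25 to 42 at 12am, against 20.1% to 26.7%. The causes were not tested.

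Of the 200 members, 159 to 172 were chosen again without 1 replicate, 163 with a limit of 0.3 and 159 with 0.6. From large polysomal arrays alone 134 were chosen again, from small polysomal 161 and from non-polysomal 125. Quantile normalization kept 191 and the shift to the control RNA 113. The array number and low signal in 81 members limit the smaller differences.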
